A study of Mus musculus with 24 samples.

Results

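The genes described are 37 genes of ribosome biogenesis and RNA polymerase I (Pol I) transcription, taken by gene name from this pathway by a rule that uses no measured value, though the set was drawn up with earlier results of these data known. They are 37 of the 54733 genes listed for each mouse liver library, and all 37 were among the 11244 genes that averaged 1 FPKM or more over the libraries and were tested. FPKM is the number of fragments scaled by transcript length and by the total of mapped fragments. The libraries were made from poly(A)-tailed RNA of livers of male C57BL/6 mice kept in constant darkness, with circadian time (CT) projected from the start of darkness and not read from each animal's own clock. The WT group was compared with the homozygous ΔRRE group, which lacks both REV-ERB/ROR response elements (RREs) of the clock gene *Bmal1* (listed as *Arntl*) in every cell, and each genotype was sampled at CT2, CT6, CT10, CT14, CT18 and CT22 with 2 libraries per time point, 24 in all. The mutants were of a single line (#1) unless stated otherwise in the methods, and the labels give no age, while the methods describe tissue collection from adult males of a range of ages. The labels call the libraries of a group replicates without saying that they came from separate animals, so the p-values measure the spread between these libraries.

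Ribosomes are assembled in the nucleolus. Pol I transcribes a long precursor RNA, small nucleolar ribonucleoproteins (snoRNPs) guide its methylation and pseudouridylation, and large sets of processing factors cut it and fold it into the small and the large subunit before export to the cytoplasm. Because this is among the most costly syntheses of a cell, it is coupled to growth and nutrients, and in rodent liver it varies with the daily cycle of feeding. The clock proteins CLOCK and BMAL1 bind the E-box, whose canonical form CACGTG is also bound by MYC, a known activator of many of these genes. The comparison of genotypes asks how these genes behave over the day when the *Bmal1* transcript no longer cycles. *Arntl* was at 12.6 and 13.2 FPKM at CT2 and 0.195 and 0.0919 at CT10 in WT, against 3.58 and 3.16 and 2.498 and 2.096 in ΔRRE.

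The E-box was searched because CLOCK and BMAL1 as well as MYC can bind it. RefSeq promoter sequences (GRCm38.p6, 250 bases before to 50 after the start) were found for 32 of the 37 genes, in 40 windows. CACGTG, which reads the same on both strands, was present in 7 of the 40 windows (17.5%), against 7.15% of all 32851 windows and 10.25% of the 10522 windows of tested genes. The stretches that hold it are shown 5′ to 3′ on the gene's strand, with the E-box in capitals:
*Mybbp1a*, chr11:72441355-72441376, plus strand: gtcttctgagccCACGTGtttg
*Nop2*, chr6:125131811-125131840, plus strand: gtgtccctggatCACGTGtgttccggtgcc
*Pes1*, chr11:3963965-3963994, plus strand: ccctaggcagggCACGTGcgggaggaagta
*Rrn3*, chr16:13780472-13780501, plus strand: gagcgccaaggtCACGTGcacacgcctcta
*Rrn3*, chr16:13780639-13780668, plus strand: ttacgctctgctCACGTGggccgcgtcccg
*Utp18*, chr11:93885769-93885798, minus strand: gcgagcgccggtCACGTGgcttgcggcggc
*Utp20*, chr10:88826765-88826789, minus strand: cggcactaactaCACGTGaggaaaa
*Wdr43*, chr17:71616220-71616249, plus strand: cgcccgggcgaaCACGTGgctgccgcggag
*Rrn3* holds the E-box at 2 places. The core of the RRE, TAGGTCA on either strand, was found in 2 of the 40 windows (*Nop58* and *Ubtf*), which is 5.0% against 2.61% of all windows. The D-box TTATGTAA, searched on both strands, was in 0 of the 40 windows and in 0.94% of all. A match of letters is a description of the window and was not tested for binding.

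Most of these transcripts were most abundant around CT14, early in the subjective night, in WT as well as in ΔRRE. In WT the highest time-point mean was at CT14 for 19 of the 37 genes (51.4%, against 18.9% of all genes tested), at CT10 for 12 and at CT18 for 3. In ΔRRE it was at CT14 for 24 genes (64.9%, against 20.1% of all genes), at CT18 for 8 and at CT10 for 2. Of the 19 genes highest at CT14 in WT, 13 were also highest at CT14 in ΔRRE (68.4%, against 43.2% of all genes highest at CT14 in WT). The lowest mean lay mostly at CT6 (13 genes) and CT18 (14 genes) in WT, where 15.4% and 21.8% of all genes had theirs, and at CT6 (13 genes) and CT22 (17 genes) in ΔRRE, against 15.5% and 19.1% of all genes. The heatmap of the genes by role shows these maxima and minima.

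**Figure D1:**
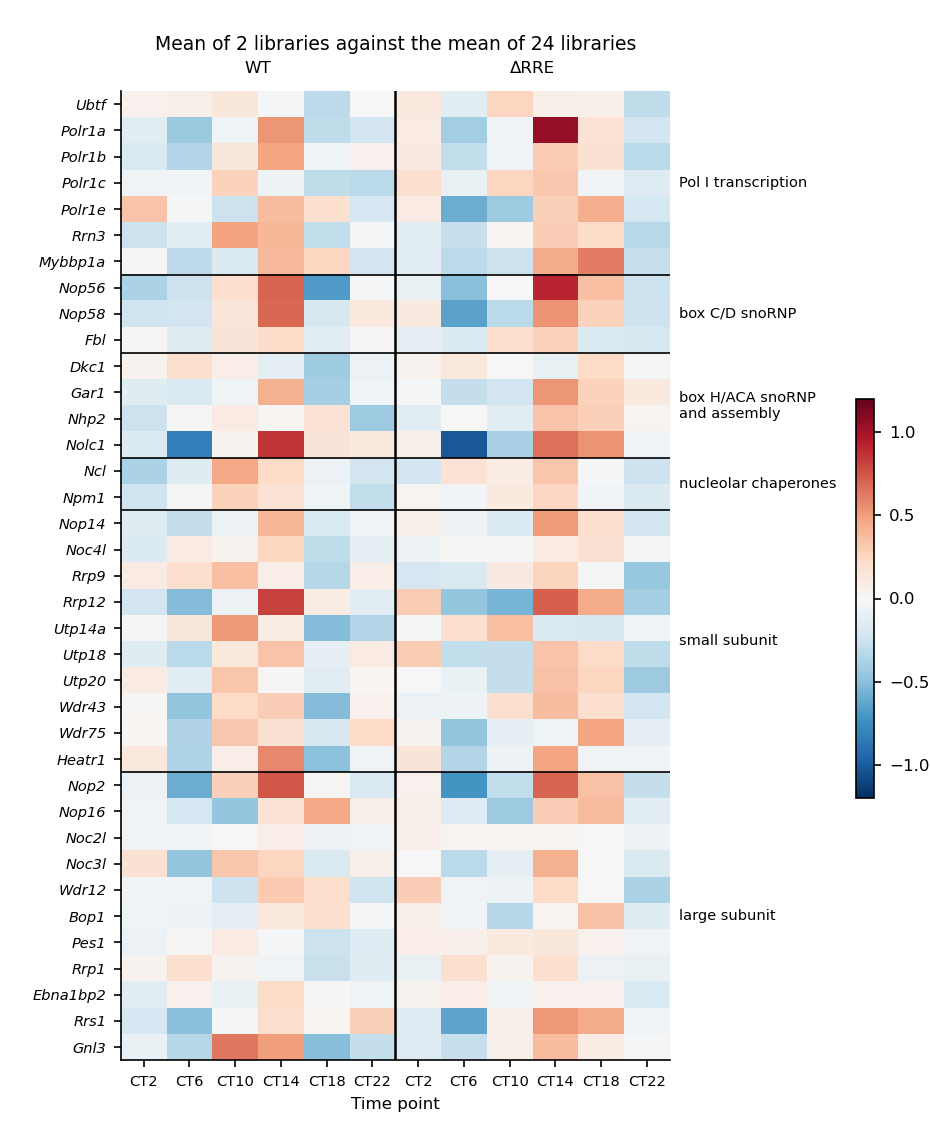
Mean log2(FPKM + 0.1) of the 2 libraries of each time point, as the deviation from the gene's mean over all 24 libraries, for the 37 genes ordered by role (rows) in WT and ΔRRE (columns, CT2 to CT22). Red is above and blue below the gene's mean, and the CT14 column is the one with the highest mean for 19 genes in WT and 24 in ΔRRE.

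The comparison of CT14 with other times was chosen after these values were seen. In WT the median ratio of the CT14 mean to the CT6 mean was 1.35 over the 37 genes and 0.984 over all genes, and both CT14 libraries lay above both CT6 libraries for 22 of the 37 genes (59.5%), against 22% of all genes. Against CT22, which uses the same CT14 libraries, the median ratio was 1.32, with no overlap for 22 genes (59.5%) and for 24.6% of all genes. In ΔRRE the ratio of CT14 to CT6 was 1.36, and 25 genes (67.6%) did not overlap, against 23.3% of all genes. The ratio of CT14 to CT22 was 1.41 in ΔRRE, with no overlap for 28 genes (75.7%) and for 26.4% of all genes. These are counts with no test, and genes of 1 library are not independent of each other.

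The median deviation of the 37 genes from their own means (log2) was 0.41 and 0.13 in the WT libraries of CT14 and 0.33 and 0.29 in those of ΔRRE. At CT18 it was -0.30 and 0.01 in WT but 0.12 and 0.27 in ΔRRE, and at CT6 it was -0.05 and -0.31 in WT and -0.15 and -0.17 in ΔRRE. The CT18 libraries of WT lay below those of ΔRRE, and the library WT CT18 replicate 1 was low also over all genes, whose median deviation there was -0.14. Replicates of WT were farther apart than those of ΔRRE: the gap between the 2 libraries of a time point had a median of 0.295 in WT (0.124 to 0.334) and 0.0411 in ΔRRE (0.0139 to 0.142). The widest gap was at CT10 in WT, with -0.02 and 0.32, where 35 of the 37 genes were above their own mean in replicate 2 and 15 in replicate 1. In bulk tissue, fewer cells of a type and less RNA per cell cannot be told apart.

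**Figure D2:**
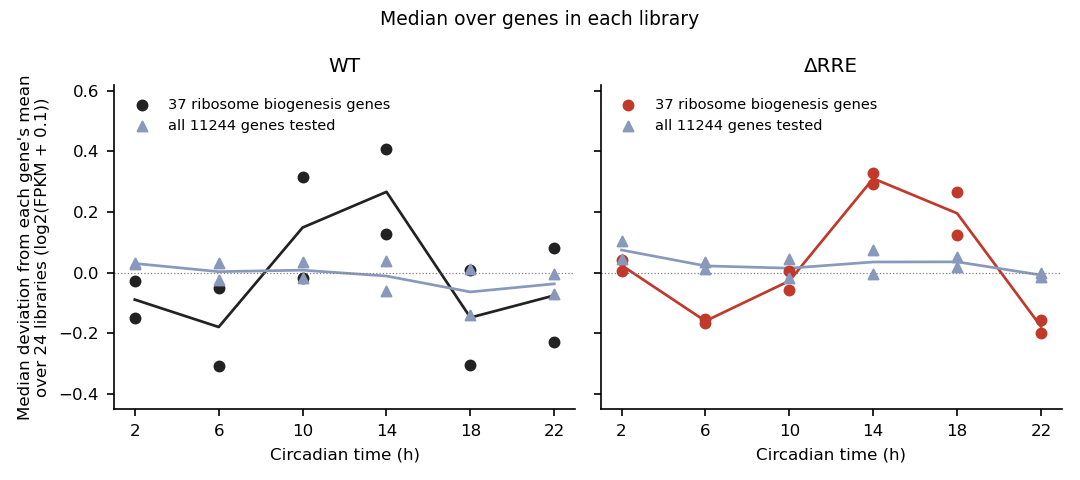
Median over genes of the deviation of log2(FPKM + 0.1) from the gene's mean over 24 libraries, for each library (points) against circadian time in h, with lines through the means of the 2 libraries. The 37 ribosome biogenesis genes (circles) reach 0.41 and 0.13 at CT14 in WT and 0.33 and 0.29 in ΔRRE, while the median of all 11244 genes (triangles) stays between -0.14 and 0.10.

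Markers of other cells did not all stay level over the same libraries. The 8 hepatocyte markers summed to 36949.7 to 54917 FPKM over the 24 libraries, and no marker of any list was at 0 in all of them. The sum of the 5 proliferation markers, such as *Mki67* and *Top2a*, was 2.22 and 1.01 FPKM at CT14 in WT and 3.09 and 1.098 in ΔRRE. It ranged from 0.452 to 5.59 FPKM in WT (median 1.86) and from 0.609 to 3.09 in ΔRRE (median 1.17). The highest library was CT6 replicate 1 in WT and CT14 replicate 1 in ΔRRE. The sum of the 4 erythroid markers ranged from 376 to 1212 FPKM in WT and from 428 to 3531 in ΔRRE, with its highest values in ΔRRE CT14 replicate 1 (3531) and ΔRRE CT10 replicate 1 (3460.4). In ΔRRE CT14 replicate 2 it was 969, and the median deviation of the 37 genes there was 0.29, against 0.33 in replicate 1. The 6 Kupffer cell markers summed to 13.005 to 94.9 FPKM in WT and 26.8 to 64.3 in ΔRRE, and the 6 lymphocyte and neutrophil markers reached 12.7 FPKM in ΔRRE CT14 replicate 1. The 5 endothelial markers summed to 19.3 to 40.4 FPKM in WT and 20.6 to 36.6 in ΔRRE. The 4 cholangiocyte markers summed to 2.81 to 8.17 FPKM in WT and 2.31 to 8.79 in ΔRRE. Both lists were highest in CT2 replicate 2 of each genotype. The 5 stellate cell markers summed to 34.3 to 86.9 FPKM in WT, highest in CT2 replicate 1, and 35.8 to 79.9 in ΔRRE, highest in CT14 replicate 1. The part of these cells in the results was not tested.

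Rhythms were tested by fitting a wave with a period of 24 h to log2(FPKM + 0.1), with limma's moderated F-test and Benjamini-Hochberg adjustment over the 11244 genes. The amplitude is the height of the fitted peak above the wave's mean on the log2 scale. In WT, 2 of the 37 genes (5.41%) passed an adjusted p of 0.05, *Utp14a* and *Nop16*, against 10.3% of all genes. In ΔRRE 1 gene (2.7%) passed, *Nolc1*, against 4.57% of all genes. Without adjustment 13 genes in WT and 14 in ΔRRE had a p under 0.05, against 3102 and 2543 of all 11244 genes. By the looser criteria of the study's methods (p under 0.3, here of the fitted wave, time-point means that span more than 1.5-fold, and no SD above 1.5 times the gap between the highest and the lowest mean), 21 genes were rhythmic in WT (56.8%, against 37% of all genes) and 22 in ΔRRE (59.5%, against 35.4%), with 15 in both (40.5%, against 2580 of all 11244 genes).

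With both genotypes in 1 fit, 8 of the 37 genes (21.6%) passed for a 24 h wave, which is close to the 18.7% of all genes. When the 6 time points were instead compared without any assumed shape, 17 of the 37 (45.9%) differed between time points, against 26.6% of all genes. The 10 genes that passed the second test but not the first had their highest mean at CT14 in 10 cases in ΔRRE and in 6 in WT. Of the 7 genes that passed both tests, 4 in ΔRRE and 3 in WT were highest at CT14. These genes were picked by tests on the same values, and the share over all genes picked in this way was not computed. *Ncl* passed the first test (adjusted p = 0.0422) and missed the second (adjusted p = 0.0665). Fitted peaks lay between CT12 and CT18 for 21 genes (56.8%) in each genotype, against 21.5% of all genes in WT and 24.7% in ΔRRE. Within and outside this window the fitted peak was later in ΔRRE than in WT for 27 of the 37 genes. That count was not taken over all genes and was not tested, and most of these waves did not pass in a single genotype. The median amplitude was 0.24 in WT and 0.22 in ΔRRE, against 0.20 and 0.19 over all genes.

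**Figure D3:**
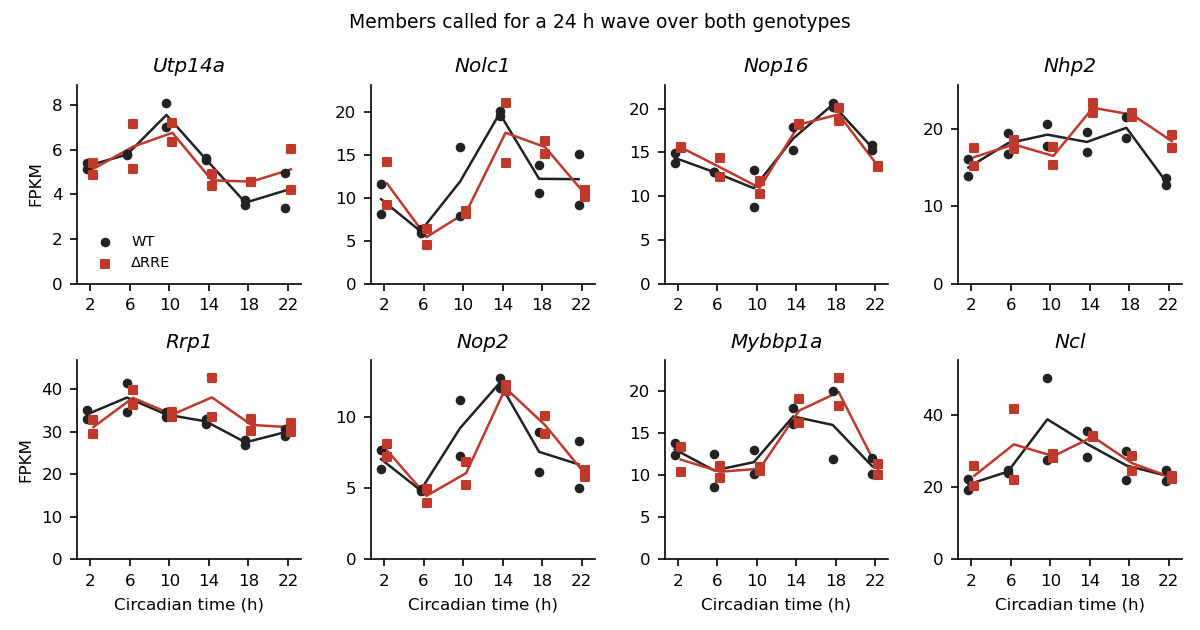
FPKM of the 8 genes that passed for a 24 h wave over both genotypes, against circadian time in h, for single libraries of WT (black circles) and ΔRRE (red squares), with lines through the means of the 2 libraries. *Nolc1* and *Nop2* are lowest at CT6 and highest at CT14 in both genotypes, *Utp14a* is highest at CT10, and *Nop16* is lowest at CT10 and highest at CT18.

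Of the 7 Pol I transcription genes, 1 passed for a wave over both genotypes and 3 differed between time points. *Polr1a*, which encodes the largest subunit of Pol I, was at 2.797 and 2.397 FPKM at CT2, 2.104 and 2.03 at CT6, 2.35 and 3.19 at CT10, 4.03 and 4.31 at CT14, 2.15 and 2.43 at CT18 and 2.17 and 2.701 at CT22 in WT. In ΔRRE it was at 3.16 and 2.95 FPKM at CT2, 1.73 and 2.55 at CT6, 2.59 and 2.99 at CT10, 6.42 and 5.58 at CT14, 4.24 and 2.46 at CT18 and 2.12 and 2.76 at CT22. Both CT14 libraries were above every library of the other time points in each genotype. The CT14 mean was 2.02-fold the CT6 mean in WT and 2.801-fold in ΔRRE (limma, adjusted p = 0.000505 for a difference between time points, and 0.123 for a wave).

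*Mybbp1a*, a nucleolar protein that restrains Pol I and takes part in processing of the precursor, was at 12.3 and 13.8 FPKM at CT2, 12.5 and 8.55 at CT6, 10.1 and 12.96 at CT10, 17.9 and 15.99 at CT14, 11.9 and 19.99 at CT18 and 10.1 and 11.97 at CT22 in WT. Its values in ΔRRE were 10.4 and 13.3 FPKM at CT2, 11.1 and 9.66 at CT6, 10.99 and 10.5 at CT10, 16.2 and 19.1 at CT14, 21.5 and 18.2 at CT18 and 11.3 and 10.01 at CT22. The CT14 and CT18 libraries of ΔRRE were above all its other libraries, whereas in WT the CT18 libraries stood far apart. The fitted peaks were at CT16.2 in WT and CT16.5 in ΔRRE (adjusted p over both = 0.0315), and the call was lost without any 1 of 5 libraries, most without ΔRRE CT18 replicate 1 (adjusted p = 0.0804). *Polr1c*, a subunit shared with Pol III, differed between time points (adjusted p = 0.0235) with its highest mean at CT10 in WT and CT14 in ΔRRE. *Polr1b*, the second largest subunit, was at 7.47 and 6.88 FPKM at CT14 and 4.59 and 3.47 at CT6 in WT, but missed the threshold (adjusted p = 0.0532 for time points).

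The remaining Pol I genes passed neither test. *Ubtf*, the factor that holds ribosomal DNA open, had an amplitude of 0.16 ± 0.06 in WT and 0.15 ± 0.09 in ΔRRE (SE, 12 libraries each). *Rrn3*, which carries Pol I to the promoter and whose window holds the E-box at 2 places, had amplitudes of 0.34 ± 0.12 and 0.28 ± 0.11. *Polr1e*, a further Pol I subunit, was the least precise member, with 0.909 and 4.05 FPKM in the WT libraries of CT10.

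The box C/D snoRNP genes encode the core of the particles that methylate ribosomal RNA, and all 3 had their highest mean at CT14 in both genotypes. *Nop56* was at 7.16 and 8.88 FPKM at CT2, 10.2 and 7.46 at CT6, 10.8 and 13.3 at CT10, 23.02 and 12.4 at CT14, 5.696 and 7.34 at CT18 and 9.73 and 10.8 at CT22 in WT. Values in ΔRRE were 10.4 and 9.16 FPKM at CT2, 7.401 and 7.18 at CT6, 8.37 and 12.8 at CT10, 17.7 and 21.7 at CT14, 13.9 and 12.9 at CT18 and 7.71 and 9.696 at CT22. Both CT14 libraries exceeded every other library in ΔRRE, while in WT replicate 2 of CT14 was below 1 library of CT10. The CT14 to CT6 ratio was 2.003 in WT and 2.704 in ΔRRE (adjusted p = 0.00754 for time points, 0.0515 for a wave). *Fbl*, the methyltransferase of the particle, passed for time points with a smaller range (adjusted p = 0.0242, highest to lowest time-point mean 1.29 in WT and 1.39 in ΔRRE). *Nop58*, the partner of *Nop56*, had ratios of 1.95 and 2.23 and missed the threshold (adjusted p = 0.0622).

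Among the 4 genes of the box H/ACA snoRNPs, which convert uridine to pseudouridine, and their assembly, 2 passed for a wave over both genotypes. *Nolc1*, a nucleolar chaperone of snoRNPs, had the widest daily range of all 37 genes. It was at 8.06 and 11.6 FPKM at CT2, 6.31 and 5.85 at CT6, 7.905 and 15.8 at CT10, 20.1 and 19.5 at CT14, 10.6 and 13.8 at CT18 and 9.16 and 15.1 at CT22 in WT. The ΔRRE libraries held 9.14 and 14.1 FPKM at CT2, 4.46 and 6.35 at CT6, 8.12 and 8.404 at CT10, 14.03 and 21.1 at CT14, 16.6 and 15.1 at CT18 and 10.9 and 10.1 at CT22. Every CT6 library was at 6.35 FPKM or less, below all libraries of the other time points, and the CT14 libraries of both genotypes were at 14.03 FPKM or more. The CT14 mean was 3.26-fold the CT6 mean in WT and 3.25-fold in ΔRRE. Its amplitude was 0.58 ± 0.16 with a peak at CT16.1 in WT and 0.68 ± 0.15 with a peak at CT17.6 in ΔRRE (SE, 12 libraries each). The wave passed over both genotypes (adjusted p = 0.00931) and kept its call without any 1 library. In ΔRRE alone it passed narrowly (adjusted p = 0.0498) and was lost without any of 11 of the 12 libraries (adjusted p up to 0.124 without CT6 replicate 1). In WT alone it missed the threshold (adjusted p = 0.0827).

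*Nhp2*, a core protein of these particles, was at 16.1 and 13.9 FPKM at CT2, 19.5 and 16.8 at CT6, 17.8 and 20.7 at CT10, 19.6 and 17.02 at CT14, 18.8 and 21.5 at CT18 and 12.8 and 13.6 at CT22 in WT. The values in ΔRRE were 15.2 and 17.5 FPKM at CT2, 17.4 and 18.6 at CT6, 15.3 and 17.7 at CT10, 22.1 and 23.4 at CT14, 22.1 and 21.6 at CT18 and 19.2 and 17.6 at CT22. The CT22 libraries were the lowest in WT, whereas in ΔRRE the CT14 and CT18 libraries were above all others. The wave passed over both genotypes (adjusted p = 0.0254), and without either WT CT22 library the adjusted p was 0.0507 or 0.0506. *Dkc1*, the pseudouridine synthase, had its highest mean at CT6 in WT, with an amplitude of 0.26 ± 0.08 against 0.04 ± 0.07 in ΔRRE, and *Gar1* was highest at CT14 in both. Neither passed a test.

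*Ncl* and *Npm1* encode nucleolin and nucleophosmin, abundant chaperones of the nucleolus. *Npm1* had the highest mean level of the set, 49.7 FPKM, though it has processed pseudogenes among which the counting could divide its reads. The WT libraries held 19.2 and 22.3 FPKM at CT2, 24.8 and 23.7 at CT6, 27.4 and 50.2 at CT10, 35.6 and 28.3 at CT14, 21.97 and 29.97 at CT18 and 21.7 and 24.6 at CT22 of *Ncl*. The ΔRRE libraries held 25.9 and 20.4 FPKM at CT2, 41.8 and 21.9 at CT6, 27.9 and 29.2 at CT10, 33.8 and 34.1 at CT14, 28.7 and 24.4 at CT18 and 23.01 and 22.2 at CT22 of *Ncl*. Single libraries stood apart, replicate 2 of WT CT10 and replicate 1 of ΔRRE CT6, and the CT14 libraries of ΔRRE were above the rest apart from the latter. *Ncl* passed for a wave over both genotypes (adjusted p = 0.0422), and the call was lost without any 1 of 14 libraries, with the highest adjusted p without WT CT2 replicate 1 (0.0871) and the lowest in all without ΔRRE CT6 replicate 1 (0.0132). *Npm1* was at 39.2 and 43.8 FPKM at CT2, 47.3 and 49.1 at CT6, 68.4 and 51.8 at CT10, 65.02 and 47.1 at CT14, 48.4 and 45.97 at CT18 and 34.98 and 45.4 at CT22 in WT. In ΔRRE it was at 61.4 and 40.7 FPKM at CT2, 57.9 and 39.6 at CT6, 54.3 and 52.1 at CT10, 60.4 and 56.04 at CT14, 50.9 and 45.4 at CT18 and 43.995 and 43.2 at CT22, with overlapping time points, and it missed the threshold (adjusted p over both = 0.0578).

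The 10 genes of the small subunit build the processome on the nascent precursor, and 4 of them differed between time points. *Utp14a*, which activates a helicase of this particle, had an earlier phase than most of the set. It was at 5.41 and 5.13 FPKM at CT2, 5.801 and 5.75 at CT6, 8.103 and 6.998 at CT10, 5.52 and 5.61 at CT14, 3.52 and 3.72 at CT18 and 3.39 and 4.93 at CT22 in WT. Its ΔRRE values were 5.39 and 4.88 FPKM at CT2, 7.14 and 5.12 at CT6, 7.18 and 6.32 at CT10, 4.89 and 4.35 at CT14, 4.56 and 4.56 at CT18 and 6.03 and 4.195 at CT22. In WT both CT10 libraries were above, and both CT18 libraries below, the libraries of CT2, CT6 and CT14. The amplitude was 0.44 ± 0.09 with a peak at CT8.52 in WT (adjusted p = 0.0160) and 0.24 ± 0.09 with a peak at CT7.24 in ΔRRE (adjusted p = 0.242). The difference in rhythm between the genotypes did not pass (adjusted p = 0.999927). Over both genotypes *Utp14a* had the smallest adjusted p of the set for a wave (0.00465), and it kept this call and that in WT without any 1 library.

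*Heatr1*, which links Pol I transcription to the processome, was at 3.99 and 4.82 FPKM at CT2, 3.21 and 2.92 at CT6, 3.39 and 5.27 at CT10, 5.81 and 6.25 at CT14, 2.75 and 2.86 at CT18 and 3.03 and 4.94 at CT22 in WT. Values of *Heatr1* in ΔRRE were 4.64 and 4.2999 FPKM at CT2, 2.72 and 3.55 at CT6, 4.33 and 3.41 at CT10, 5.45 and 5.76 at CT14, 4.15 and 3.63 at CT18 and 3.78 and 3.97 at CT22. Both CT14 libraries were the highest in each genotype, with a CT14 to CT6 ratio of 1.97 in WT and 1.79 in ΔRRE. The time points differed (adjusted p = 0.00303), but a 24 h wave did not pass (adjusted p = 0.719). *Rrp12*, needed for export of precursors of the small subunit, also had its highest mean at CT14 in both genotypes. It was at 4.899 and 3.56 FPKM at CT14 and 2.18 and 1.16 at CT6 in WT and at 3.31 and 4.56 and 1.23 and 2.24 in ΔRRE (adjusted p = 0.00863 for time points). Its lowest mean was at CT6 in WT and at CT10 in ΔRRE. *Nop14*, an assembly factor, was highest at CT14 in both genotypes and passed as well (adjusted p = 0.0273).

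The other small subunit genes, *Noc4l*, *Rrp9*, *Utp18*, *Utp20*, *Wdr43* and *Wdr75*, passed neither test over both genotypes. Their highest time-point mean exceeded the lowest by 1.36 to 1.77-fold in WT and by 1.19 to 1.93-fold in ΔRRE. *Rrp9*, which belongs to the U3 snoRNP, had a fitted peak at CT7.20 in WT and CT12.4 in ΔRRE.

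Of the 11 genes of the large subunit, 3 passed for a wave over both genotypes and 6 differed between time points. *Nop2*, a methyltransferase of the large ribosomal RNA with an E-box in its window, was at 6.36 and 7.69 FPKM at CT2, 4.902 and 4.77 at CT6, 7.26 and 11.2 at CT10, 12.7 and 12.03 at CT14, 6.13 and 8.95 at CT18 and 5.02 and 8.296 at CT22 in WT. It was at 7.16 and 8.13 FPKM at CT2, 3.98 and 4.92 at CT6, 5.22 and 6.86 at CT10, 11.8 and 12.3 at CT14, 8.76 and 10.1 at CT18 and 6.26 and 5.81 at CT22 in ΔRRE. Both CT14 libraries exceeded every library of the other time points in each genotype, and the CT6 libraries were the lowest. The CT14 to CT6 ratio was 2.56 in WT and 2.704 in ΔRRE (adjusted p = 0.000309 for time points and 0.0288 for a wave). The wave lost its call without any 1 of 7 libraries (adjusted p up to 0.0616, without ΔRRE CT6 replicate 1).

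*Nop16*, an assembly factor of the early large subunit, had the smallest adjusted p for time points (4.61e-05) and a late phase. It was at 13.8 and 14.99 FPKM at CT2, 12.8 and 12.7 at CT6, 8.81 and 13.01 at CT10, 17.9 and 15.3 at CT14, 20.3 and 20.7 at CT18 and 15.3 and 15.8 at CT22 in WT. Its values in ΔRRE were 15.7 and 15.5 FPKM at CT2, 14.4 and 12.2 at CT6, 11.7 and 10.2 at CT10, 18.3 and 18.1 at CT14, 18.6 and 20.1 at CT18 and 13.4 and 13.5 at CT22. Both CT18 libraries exceeded all others in each genotype, and CT10 had the lowest mean. The amplitude was 0.36 ± 0.09 with a peak at CT19.0 in WT (adjusted p = 0.0406) and 0.27 ± 0.10 with a peak at CT18.3 in ΔRRE (adjusted p = 0.220). The call over both genotypes (adjusted p = 0.0198) held without any 1 library, but that in WT was lost in 10 of 12 such fits (adjusted p up to 0.0993, without CT18 replicate 1).

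*Rrp1*, a nucleolar protein of large subunit processing, was at 35.1 and 33.03 FPKM at CT2, 41.5 and 34.5 at CT6, 33.4 and 34.6 at CT10, 33.04 and 31.7 at CT14, 27.96 and 26.9 at CT18 and 28.97 and 30.7 at CT22 in WT. Values of *Rrp1* in ΔRRE were 32.7 and 29.4 FPKM at CT2, 36.2 and 39.7 at CT6, 33.5 and 34.5 at CT10, 42.5 and 33.5 at CT14, 33.04 and 30.1 at CT18 and 29.97 and 32.01 at CT22. The CT18 libraries were the lowest in WT, and in ΔRRE most time points overlapped. It passed for a wave over both genotypes (adjusted p = 0.0284) with an amplitude of only 0.20 ± 0.05 in WT and 0.14 ± 0.06 in ΔRRE, and the call was lost without WT CT6 replicate 1 (adjusted p = 0.0772), WT CT18 replicate 1 (0.0570) or WT CT18 replicate 2 (0.0651). *Gnl3*, nucleostemin, was at 24.5 and 22.5 FPKM at CT10, 20.4 and 22.6 at CT14 and 9.18 and 12.3 at CT18 in WT, where the CT18 libraries did not overlap the others named. It passed for time points (adjusted p = 0.0314), as did *Noc3l* (adjusted p = 0.0301) and *Rrs1*, a regulator of large subunit assembly (adjusted p = 0.0497).

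*Noc3l*, which had the lowest mean level of the set (2.12 FPKM), was at 2.06 and 2.72 FPKM at CT2, 1.47 and 1.46 at CT6, 2.09 and 3.32 at CT10, 2.18 and 2.88 at CT14, 1.66 and 2.01 at CT18 and 2.06 and 2.33 at CT22 in WT. In ΔRRE its values were 2.04 and 2.14 FPKM at CT2, 1.49 and 1.79 at CT6, 1.99 and 1.83 at CT10, 2.74 and 2.92 at CT14, 1.98 and 2.15 at CT18 and 1.86 and 1.798 at CT22. The CT6 libraries were the lowest in both genotypes. *Pes1*, *Bop1* and *Wdr12* form 1 complex, and none of them passed a test of time. Their ratios of highest to lowest mean were 1.29, 1.27 and 1.51 in WT and 1.13, 1.63 and 1.64 in ΔRRE. *Noc2l*, a partner of *Noc3l* in early export of the large subunit, was the flattest of the 37 genes, with ratios of 1.12 and 1.09, and *Ebna1bp2*, an early assembly factor, had ratios of 1.28 and 1.17.

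No difference in rhythm between ΔRRE and WT was detected for any of the 37 genes. In limma's test of the differences of the wave terms 0 of 37 passed an adjusted p of 0.05, and 0 had an unadjusted p under 0.05. Over all genes 1 passed with adjustment (0.00889%), which was *Arntl*, and 319 without (2.84%). In this limma fit over both genotypes (n = 12 libraries each) the smallest unadjusted values were those of *Dkc1* (p = 0.0568), *Rrp9* (p = 0.0651) and *Nhp2* (p = 0.0708), each with an adjusted p of 0.999927. In WT *Dkc1* was at 6.09 and 6.37 FPKM at CT2, 8.14 and 5.89 at CT6, 6.46 and 6.33 at CT10, 6.26 and 4.99 at CT14, 4.25 and 4.74 at CT18 and 5.18 and 6.4000 at CT22. In ΔRRE it was at 6.67 and 5.86 FPKM at CT2, 6.404 and 6.84 at CT6, 5.82 and 6.29 at CT10, 6.004 and 5.35 at CT14, 7.34 and 6.99 at CT18 and 5.22 and 6.801 at CT22, where both CT18 libraries were above all others of ΔRRE by a small margin. *Rrp9* was at 5.96 and 4.04 FPKM at CT2, 5.36 and 5.23 at CT6, 5.83 and 5.96 at CT10, 5.09 and 4.598 at CT14, 3.05 and 4.25 at CT18 and 4.61 and 5.06 at CT22 in WT. In ΔRRE the values of *Rrp9* were 4.74 and 3.33 FPKM at CT2, 3.32 and 4.92 at CT6, 5.6001 and 4.38 at CT10, 5.68 and 5.38 at CT14, 3.73 and 5.398 at CT18 and 3.28 and 3.34 at CT22, and the time points of both genotypes overlapped in part. The median log2 ratio of the amplitudes, ΔRRE to WT, was -0.09 over the 37 genes and -0.07 over all genes.

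The mean level over the day was also close between the genotypes. The difference ΔRRE minus WT on the log2(FPKM + 0.1) scale, with time point as a factor, ranged from -0.16 (*Rrp9*) to 0.21 (*Polr1a*), with a median of 0.02 over the 37 genes and 0.04 over all genes. Of the 37 genes 24 were above 0 (64.9%), as were 7362 of the 11244. With adjustment 0 of 37 passed limma's test, against 0% of all genes, and the smallest adjusted p was 0.516. Without adjustment 3 genes had a p under 0.05 and were higher in ΔRRE (8.11%, against 7.16% of all genes), and 0 were lower (against 1.75%), a share near that of all genes. These 3 were *Polr1a* (0.21 ± 0.10 SE, unadjusted p = 0.0495, adjusted p = 0.558), *Polr1c* (0.17 ± 0.07 SE, unadjusted p = 0.0306, adjusted p = 0.516) and *Pes1* (0.13 ± 0.06 SE, unadjusted p = 0.0342, adjusted p = 0.527). The values of *Polr1c* were 12.8 and 10.4 FPKM at CT2, 10.6 and 12.8 at CT6, 12.8 and 16.3 at CT10, 10.8 and 12.05 at CT14, 9.03 and 10.2 at CT18 and 9.89 and 9.17 at CT22 in WT. They were 13.5 and 13.7 FPKM at CT2, 11.8 and 10.6 at CT6, 16.02 and 12.7 at CT10, 17.5 and 12.7 at CT14, 11.6 and 11.7 at CT18 and 10.2 and 11.3 at CT22 in ΔRRE, above WT without overlap at 4 of the 6 time points and overlapping it at CT6 and CT10. *Pes1* was at 8.72 and 10.3 FPKM at CT2, 10.98 and 9.18 at CT6, 9.41 and 11.9 at CT10, 10.2 and 9.44 at CT14, 7.602 and 8.98 at CT18 and 8.35 and 9.49 at CT22 in WT. Its ΔRRE values were 11.1 and 9.89 FPKM at CT2, 10.6 and 10.1 at CT6, 11.2 and 10.3 at CT10, 11.3 and 10.4 at CT14, 10.8 and 9.78 at CT18 and 9.46 and 9.75 at CT22, above WT without overlap at CT14 and CT18 and overlapping it at the other 4 time points. The 95% intervals had a median reach of 0.21 to either side, and those of 36 of the 37 genes lay within 0.5 of 0, with *Polr1e* the exception (-0.55 to 0.27).

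**Figure D4:**
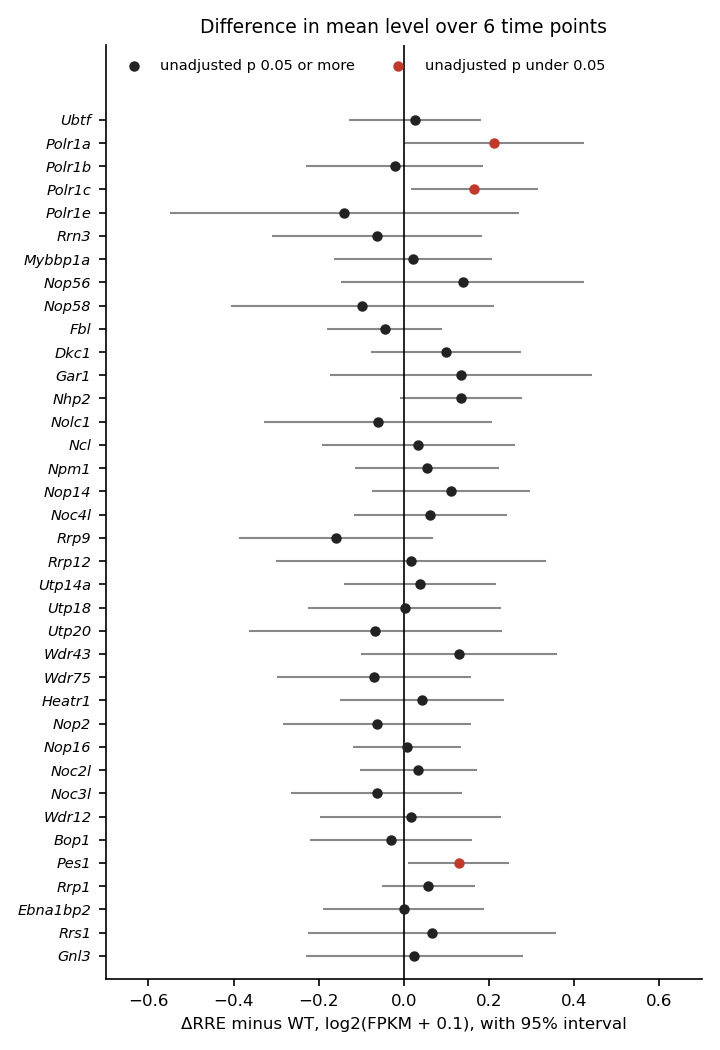
Difference in mean log2(FPKM + 0.1), ΔRRE minus WT, over the 6 time points for each of the 37 genes, with its 95% interval from limma (bars). Points lie between -0.16 and 0.21, and the 3 red points (*Polr1a*, *Polr1c*, *Pes1*) have an unadjusted p under 0.05, with no gene passing after adjustment.

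A list of 105 other genes of the pathway, of which 104 were tested, was read beside the set. For a wave, 4 passed in WT (3.85%, against 10.3% of all genes) and 1 in ΔRRE (0.962%, against 4.57%). Over both genotypes 8 passed (7.69%, against 18.7% of all genes), and 36 differed between time points (34.6%, against 26.6%). The shares over both genotypes lie below those of the 37 genes, a difference that was not tested. For the level and for the rhythm 0 of the 104 differed between the genotypes with adjustment. At an unadjusted p under 0.05, 9 were higher in ΔRRE (8.65%, against 7.16% of all genes) and 0 lower (against 1.75%). In rhythm 2 differed without adjustment (1.92%, against 2.84% of all genes). Their highest mean lay at CT14 for 49 genes in WT (47.1%) and 53 in ΔRRE (51%), against 18.9% and 20.1% of all genes. The strongest waves among them had other phases. *Nat10*, the acetyltransferase of ribosomal RNA, peaked at CT20.6 in WT and CT21.6 in ΔRRE with amplitudes of 0.49 ± 0.09 and 0.41 ± 0.08 (adjusted p over both = 0.000252). *Rcl1*, of the small subunit processome, peaked at CT7.58 and CT8.23 with amplitudes of 0.54 ± 0.07 and 0.41 ± 0.12 (adjusted p = 0.00114). *Taf1b*, of the promoter selectivity factor of Pol I, had an amplitude of 0.71 ± 0.11 in WT and 0.26 ± 0.17 in ΔRRE, and the difference did not pass (unadjusted p = 0.0341, adjusted p = 0.999927). In ΔRRE, *Gnl2* and *Eif6*, both of the large subunit, followed *Nat10* by p and missed the threshold (adjusted p = 0.0526 and 0.115). By the difference in rhythm, *Ruvbl1* and *Ltv1* stood beside *Taf1b* (unadjusted p = 0.0120 and 0.0723). By the difference in level, *Cebpz*, *Ddx52* and *Ddx47* were first, higher in ΔRRE by 0.21, 0.15 and 0.18 on the log2 scale (adjusted p = 0.383, 0.443 and 0.464).

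The 7 genes with an E-box in their window were Pol I (*Mybbp1a*, *Rrn3*), small subunit (*Utp18*, *Utp20*, *Wdr43*) and large subunit genes (*Nop2*, *Pes1*). Of them 4 were highest at CT14 in WT and 5 in ΔRRE, against 15 and 19 of the other 30 genes, 5 of which had no promoter in the table. *Mybbp1a* and *Nop2* passed for a wave over both genotypes, whereas *Pes1*, *Rrn3*, *Utp18*, *Utp20* and *Wdr43* did not. Reads were not stated to be counted by strand, and exons of 15 of the 37 genes overlap a gene on the opposite strand (*Nop56* with *Idh3b* and *Heatr1* with *Lgals8*, for example). On the same strand, snoRNA genes or a microRNA gene overlap an exon of some annotated transcript of *Gnl3*, *Ncl*, *Nop56* and *Nop58*. Exons of every annotated transcript were taken, which need not be those of the main mRNA. Reads of overlapping genes cannot be fully told apart. The number of reads behind an FPKM is unknown, and no counting error can be given.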

How the data were processed

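Poly(A)-tailed RNA of 24 mouse liver samples was sequenced from directional libraries, and the authors deposited the FPKM of each gene in each library, without pooling. The submitters' processing notes name Trimmomatic 0.39, HISAT2 2.1.0, StringTie 1.3.5 and the build mm10. The values are not counts, so no count test was used, depth is unknown and no counting intervals are given. FPKM sums ranged from 554170 to 624746 per library, and the highest share of identical values in any pair of libraries was 0.0411%. The table of the whole series was not used.

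Groups came from the labels. log2(FPKM + 0.1) was fitted with limma 3.58.1 (R 4.3.3, trended prior) over the 11244 genes that averaged 1 FPKM or more, with Benjamini-Hochberg adjustment over them. Waves of a 24 h period (a cosine plus a sine term) were tested in each genotype, over both together and for their difference, and genotype was tested with time point as a factor. BIO_CYCLE, the rhythm test of the study, was not run; its criteria were applied with the p of the fitted wave. Alternatives were other constants, filters and priors, rescaling by the median of ratios, a shared spread, time point as a factor, the replicate number as a block, and leaving out each library. The tests of level and of waves, in each genotype and over both, were tried on simulated data with a level shift or a wave shared by both genotypes. The tests for a difference in rhythm and for a difference between time points were not tried in this way. The 37 genes, the list of other pathway genes and the tests were chosen with earlier results of these data known. Named with values in every library were genes called in a fit (at most 8, by p over both genotypes), the 3 genes of smallest p where none was called, and the genes of highest and lowest mean; *Polr1a*, *Nop56* and *Heatr1* were added after their values were seen. Of the other pathway genes the 3 of smallest p in each fit were named. Promoters came from RefSeq (GRCm38.p6), and figures were drawn with matplotlib 3.10.9.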

Additional observations from a re-analysis of the deposited data

How the results depend on the processing

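The counts of genes with a difference between the genotypes, in level or in rhythm, stayed at 0 under every alternative that was run, and no result reversed. With a mean of at least 5 FPKM some of the 37 genes, such as *Polr1a* and *Noc3l*, were not tested. Counts under that filter are therefore of fewer genes. Calls within 1 genotype depended on the settings. The count in WT (2) was 4 with 0.01 FPKM added, 4 with a mean of at least 5 FPKM, 1 with a prior without trend, 4 with a shared spread and 0 with time point as a factor, and 1 to 2 without single libraries. The count in ΔRRE (1) was 0 with 0.01 FPKM added, 0 without a filter, 2 with a mean of at least 5 FPKM, 2 after rescaling by the median of ratios, 0 with a prior without trend, 2 with a shared spread and 5 with time point as a factor, and 0 to 3 without single libraries. The count over both genotypes (8, against 2107 of all genes) was 5 without a filter and 17 with time point as a factor (against 2989 of all genes). Without single libraries it was 5 (without ΔRRE CT14 replicate 1) to 12 (without ΔRRE CT2 replicate 1). Over all genes the count without single libraries was 1753 (without ΔRRE CT18 replicate 2) to 2167 (without ΔRRE CT22 replicate 1). By the criteria of the study 14 genes instead of 22 were rhythmic in ΔRRE with a mean of at least 5 FPKM. Some genes below that mean, such as *Polr1a* and *Heatr1*, met the criteria in the main fit but were not tested under this filter. Without single libraries the count was 16 to 24. The count of genes highest at CT14, an alternative chosen after seeing the data, was 14 to 22 in WT and 19 to 27 in ΔRRE without single libraries. For the counts at CT14, within 1 genotype and by the criteria, the share over all genes was not computed under the alternatives. Apart from the filter, which changes how many genes are tested and which of the 37 are among them, the cause was not tested. With the replicate number as a block the count over both genotypes was 10 and those in WT and ΔRRE stayed at 2 and 1. Across the 66 pairs of groups the deviations of libraries with the same number correlated at -0.138 to 0.305, with 20 above 0.1, so the number was not taken to pair libraries. The 2 libraries per group and the unknown read depth limit what differences can be seen: the 95% intervals of the level differences reach 0.21 to either side in the median.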

Other observations

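*Myc* and other genes of the MYC network of factors were read as a list of 7 tested genes. *Myc* itself was at 0.53 to 15.8 FPKM in WT, with 9.38 and 15.8 at CT18 and its lowest mean at CT14 (1.02 and 0.556), and at 0.87 to 8.17 FPKM in ΔRRE, with 8.17 and 1.81 at CT14 and 2.24 and 7.68 at CT18. It passed no test of limma (adjusted p = 0.916 for a wave over both genotypes and 0.0671 for time points). *Max*, the obligate partner of MYC, peaked at CT13.9 in WT and CT14.2 in ΔRRE with amplitudes of 0.38 ± 0.10 and 0.25 ± 0.11 (SE, log2 scale, adjusted p over both = 0.0481). *Mlxipl*, the glucose-responsive factor of the same family, peaked at CT21.8 in WT and CT23.2 in ΔRRE with amplitudes of 0.38 ± 0.11 and 0.45 ± 0.12 (adjusted p over both = 0.0168). *Mlx* passed for time points (adjusted p = 0.00496) but not for a wave (adjusted p = 0.101), and *Mnt*, *Mxi1* and *Mxd4* passed neither.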
